A study of Homo sapiens with 4 samples.

Results

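Small nucleolar RNA (snoRNA) host genes are genes whose transcripts carry snoRNAs, mostly in their introns. They were taken from a gene-level RNA-seq table of Myla cells by name: every gene called SNHG followed by a number, together with GAS5, ZFAS1, EPB41L4A-AS1, DANCR and TAF1D. This gave 30 of the 58735 rows of the table, with 29 gene names because SNHG28 has a pair of rows. The group was chosen for the low level of SNHG25 in the knockdown libraries, so its values in that comparison are given as a description, with no test read from them. Myla is a human line derived from mycosis fungoides, the commonest cutaneous T cell lymphoma. The cells received a lentivirus with short hairpin RNA against FOXM1, a forkhead factor that drives cell cycle genes (shFOXM1, 2 libraries), or the same kind of virus with a scrambled hairpin (shControl, 2 libraries). In both groups 10 uL of virus medium went into 1 mL of culture, the medium was changed after 24 h, and RNA was taken 72 h later. Neither separate transductions nor a shared hairpin of the shFOXM1 libraries is stated by the labels, so the spread between libraries may be technical or may hold a difference between hairpins.

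The comparison asks which genes differ in level when FOXM1 is knocked down. The targeted gene, FOXM1, had levels of 26.5 (shControl 1), 27.6 (shControl 2), 9.27 (shFOXM1 1) and 5.59 FPKM (shFOXM1 2). FPKM corrects the fragments of a gene for its length and for library size, which lets genes be compared in level. The groups did not overlap, and shFOXM1 2 was the lowest; the log2 fold change of -1.77 (SE 0.232) had a limma adjusted p of 0.173. Whole reads behind the FPKM values came to 14147084 to 15017728 per library. Among the T cell markers, CD3D, CD2, CD3G, TRAC and PTPRC were above 1 FPKM in all 4 libraries, while CD3E, CD5, CD7 and TRBC1 stayed under 1 FPKM and CD4 was listed at 0. Of 20 markers of B cells, myeloid cells, fibroblasts with endothelium and keratinocytes with epithelium, 15 stayed under 1 FPKM in every library, 6 of them at 0. The other 5 were CD79A, CSF1R, COL1A1, COL3A1 and CDH1, and COL3A1, a collagen gene, reached 45.1 FPKM in shFOXM1 1.

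snoRNAs guide the chemical modification of ribosomal RNA in the nucleolus. Those with the sequence boxes C and D direct ribose methylation, and those with boxes H and ACA direct the change of uridine to pseudouridine, while the related scaRNAs act on spliceosomal RNA in Cajal bodies. A host gene is transcribed and spliced, the snoRNA is trimmed out of the excised intron, and the spliced remainder is in many hosts a non-coding RNA that is removed by nonsense-mediated decay as soon as ribosomes engage it. Many hosts share with ribosomal protein genes a transcript start of C followed by a run of pyrimidines (a terminal oligopyrimidine start), which ties their use to cell growth.

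SNHG25 lies on the plus strand of chromosome 17 from 64145970 to 64146476 (GRCh38, coordinates of the deposited table, which equal GENCODE 29). GENCODE 29 gives it 2 transcripts. They are shown because the SNHG25 values come from these few bases: capitals mark the leading pyrimidine run in the shorter transcript, and the part that is also annotated as the snoRNA SNORA50C in the longer. The third sequence is SNORD104, the box C/D snoRNA in the intron of SNHG25 (64146083 to 64146152), with its boxes C and D in capitals.
SNHG25, shorter transcript: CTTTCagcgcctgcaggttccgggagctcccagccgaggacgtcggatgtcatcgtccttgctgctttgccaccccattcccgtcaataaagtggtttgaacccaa
SNHG25, longer transcript: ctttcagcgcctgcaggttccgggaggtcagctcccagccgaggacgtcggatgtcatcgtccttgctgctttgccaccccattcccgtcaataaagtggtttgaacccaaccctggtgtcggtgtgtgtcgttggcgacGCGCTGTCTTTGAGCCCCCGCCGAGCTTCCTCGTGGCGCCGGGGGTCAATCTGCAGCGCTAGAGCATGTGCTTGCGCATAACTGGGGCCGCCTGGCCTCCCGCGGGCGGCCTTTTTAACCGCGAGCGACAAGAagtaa
SNORD104: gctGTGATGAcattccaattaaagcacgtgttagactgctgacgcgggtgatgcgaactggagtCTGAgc
The transcripts are 106 and 278 bases long, and SNORA50C fills bases 141 to 273 of the longer one. A second snoRNA row covers SNORA50C and is 135 bases long, so that 48.6% of the SNHG25 exon bases are shared with another row of the table.

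In SNHG25 the levels were 19.8 and 18.04 FPKM for the shControl pair and 8.26 and 8.03 FPKM for the shFOXM1 pair. The shFOXM1 libraries lay close together and well below both controls, 56.9% under the control mean. These values rested on 78 and 74 reads in shControl and on 34 and 34 in shFOXM1. By the limma fit the log2 fold change was -1.12 (SE 0.114) on the log2(FPKM + 1) scale, the furthest from 0 among the host genes tested. SNORD104, which sits in the SNHG25 intron and is counted as a row of its own, had 50 and 48 reads in shControl and 72 and 43 in shFOXM1, so the groups overlapped. The number of SNORD104 reads per SNHG25 read was 0.641 and 0.649 in shControl and 2.12 and 1.26 in shFOXM1. Its divisor is the SNHG25 count, for whose low level the group was chosen, so the higher ratio in shFOXM1 is not a separate result. Mature SNORD104 and unspliced SNHG25 RNA cannot be told apart in these counts.

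**Figure D1:**
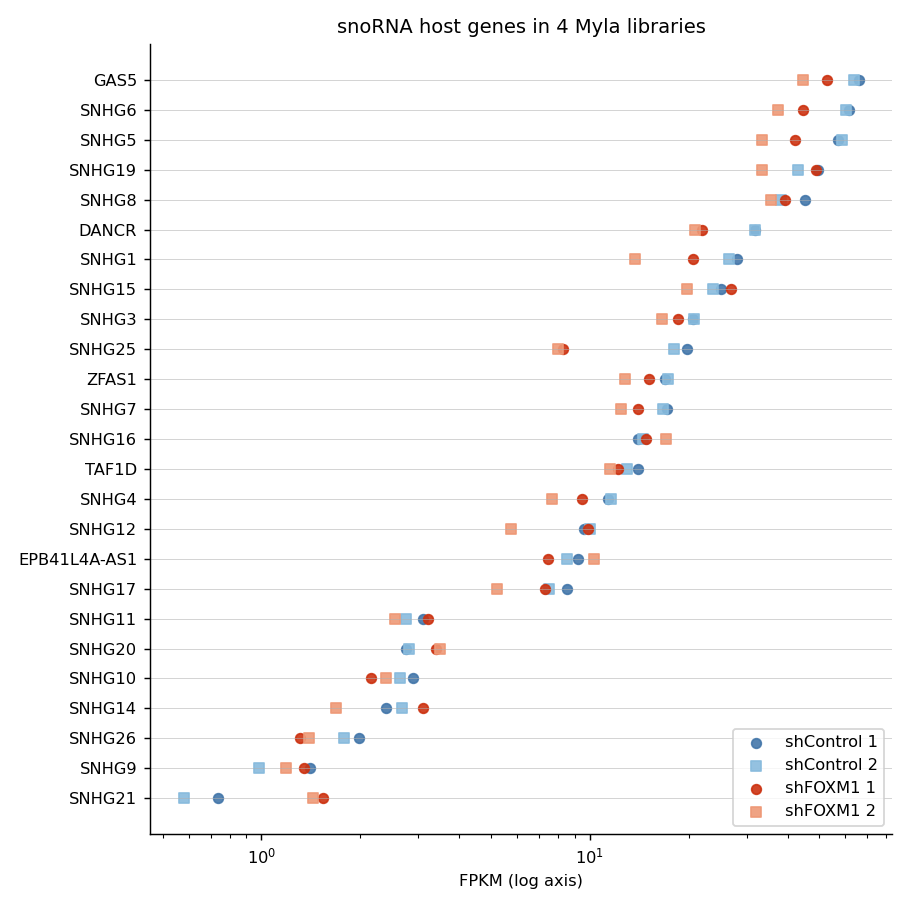
Level of each of the 25 tested snoRNA host genes in FPKM (horizontal log axis), with 1 point per library and the genes ordered by their shControl mean. SNHG25 shows the widest gap between the shControl points (19.8 and 18.04 FPKM) and the shFOXM1 points (8.26 and 8.03 FPKM).

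Of the 30 rows, 25 reached 1 FPKM in at least 2 libraries and were tested. SNHG18, SNHG27 and both SNHG28 rows were listed at 0 in every library, and SNHG22 was at most 0.190 FPKM. SNHG21 passed the filter only through the shFOXM1 libraries, where it was higher, so its direction was set by the filter. The tested host genes ranged from GAS5, at 65.9 FPKM in shControl 1, down to SNHG21, at 0.736 FPKM in the same library. Summed over the host genes, shControl came to 521 and 498 FPKM and shFOXM1 to 430 and 361 FPKM, with shFOXM1 2 the lowest. Without SNHG25 the sums were 501, 480, 422 and 353 FPKM. Fewer transcripts per cell and a smaller share of cells that make them cannot be told apart in bulk RNA.

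For 14 of the 25 tested host genes each shFOXM1 library was under each control, which was so for 25.9% of all 12033 genes tested. Both lay above for 3, SNHG16, SNHG20 and SNHG21, against 27.3% of all genes, and 8 overlapped. By the sign of the fitted change 21 were lower and 4 higher, where 50.1% of all genes were lower. The median log2 fold change was -0.23, beside -0.00075 over all genes tested and 0.01 over 977 other long non-coding genes. Of the 18 host genes with at least 5 FPKM in shControl, 12 lay below in both shFOXM1 libraries and 1 above, with a median of -0.33, where 28.5% of the 7200 genes at such levels lay below. No host gene was called in either direction by limma at an adjusted p under 0.05, nor was any of the 12033 genes (0% called). At an unadjusted limma p under 0.05, 8 host genes were lower and 1 higher (8.99% and 8.82% of all genes), and voom on the recovered reads gave the same counts of 8 and 1 with 0 called. In a fit without shFOXM1 1 the median log2 fold change of the hosts was -0.40, beside -0.0084 over all genes tested. Without shFOXM1 2 it was -0.15, beside 0.02. Nothing is read from these counts and medians, as the group was chosen on this comparison. Where only the 12 tested hosts without a gene on the opposite strand of their span were counted, 6 lay below, 1 above and the median was -0.21.

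**Figure D2:**
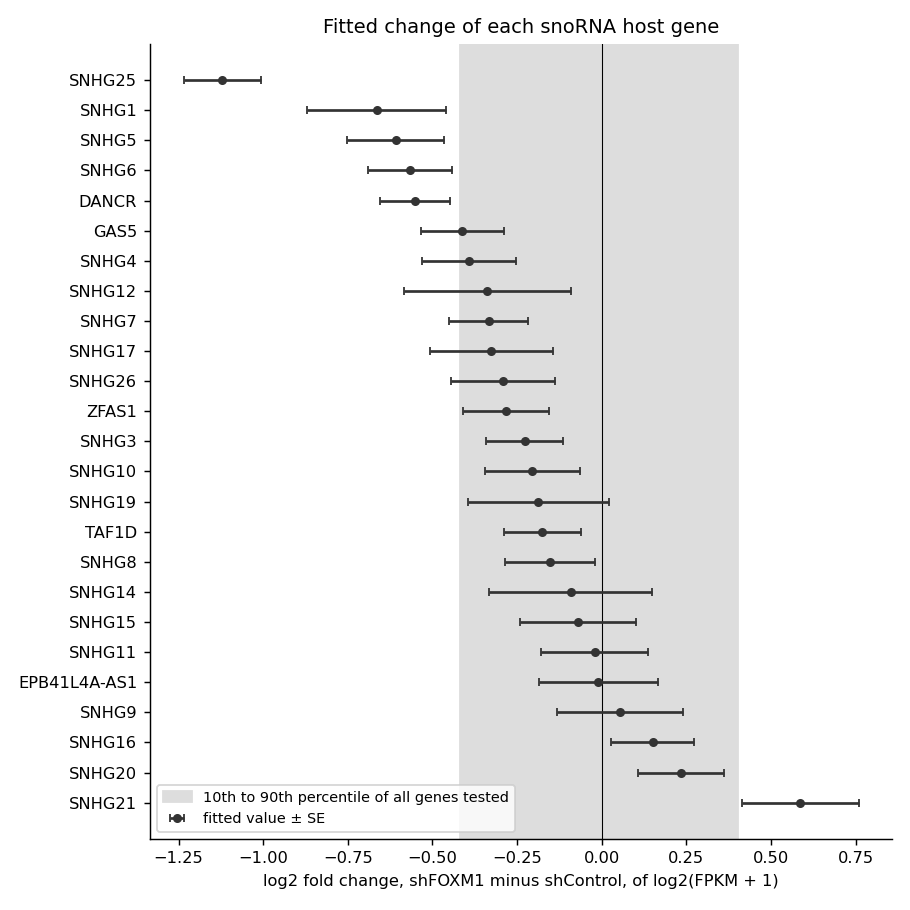
Fitted log2 fold change (shFOXM1 minus shControl) of log2(FPKM + 1) for each tested host gene, with bars of 1 SE; the grey band spans the 10th to 90th percentile of all genes tested (-0.42 to 0.40). SNHG25, SNHG1, SNHG5, SNHG6 and DANCR lie below the band and SNHG21 above it.

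Hosts whose span holds only box C/D snoRNA rows numbered 8. Both shFOXM1 libraries were lower for 5 of them, both were higher for 1 and 2 overlapped, beside 25.9% of all genes below and 27.3% above. SNHG1, the host of SNORD22 and SNORD25 to SNORD28 on chromosome 11 (62851988 to 62855914, minus strand), was at 27.97 and 26.5 FPKM in shControl and at 20.5 and 13.7 FPKM in shFOXM1. Its log2 fold change was -0.66 (SE 0.205), with shFOXM1 2 far below shFOXM1 1. SNHG5, the host of SNORD50B on chromosome 6 (85660950 to 85678748, minus strand), was at 57.1 and 58.4 FPKM in shControl and at 42.1 and 33.5 FPKM in shFOXM1. The groups were apart and the controls agreed closely, with a log2 fold change of -0.61 (SE 0.142). SNHG6, which carries SNORD87, was at 61.6 and 60.2 FPKM in shControl and at 44.4 and 37.5 FPKM in shFOXM1, or 32.7% below the control mean.

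ZFAS1, the host of the SNORD12 family on chromosome 20, was at 17.0 and 17.3 FPKM in shControl and at 15.1 and 12.8 FPKM in shFOXM1. SNHG26, which carries SNORD93, had low levels of 1.98 and 1.78 FPKM in shControl and 1.31 and 1.40 FPKM in shFOXM1. Both were lower in each shFOXM1 library. SNHG16, the host of the SNORD1 family, went the other way, with 14.0 and 14.5 FPKM in shControl and 14.8 and 17.1 FPKM in shFOXM1. The margin between its highest control and its lowest shFOXM1 library was small, and its log2 fold change of 0.15 (SE 0.123) was of the size of its error. SNHG19, which holds SNORD60 and has only 342 exon bases, was at 49.4 and 43.0 FPKM in shControl and at 48.8 and 33.4 FPKM in shFOXM1, so its groups overlapped. SNHG14, the long imprinted transcript that carries the SNORD115 and SNORD116 clusters on chromosome 15, was at 2.40 and 2.68 FPKM in shControl. In shFOXM1 1 and 2 it was at 3.10 and 1.68 FPKM, above and below both controls.

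GAS5 was named for its rise in growth-arrested cells and is a textbook host of box C/D snoRNAs, although no snoRNA row of the table lies inside its span. The controls gave 65.9 and 63.9 FPKM against 52.8 and 44.6 FPKM in shFOXM1, a log2 fold change of -0.41 (SE 0.124). Both shFOXM1 libraries were thus lower, 24.9% under the control mean, on 3394, 3423, 2835 and 2470 reads.

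Hosts whose span holds only box H/ACA snoRNA rows numbered 10, of which 5 were lower in both shFOXM1 libraries, 0 higher in both and 5 overlapping, against the same shares of 25.9% and 27.3% over all genes. DANCR, a non-coding RNA that restrains differentiation and carries SNORA26 (chromosome 4, 52712404 to 52720351, plus strand), was at 31.8 and 31.9 FPKM in shControl and at 21.9 and 20.9 FPKM in shFOXM1. The libraries of each group nearly coincided, and the log2 fold change was -0.55 (SE 0.104). SNHG4, the host of SNORA74A, was at 11.4 and 11.6 FPKM in shControl and at 9.45 and 7.69 FPKM in shFOXM1. SNHG7, the host of SNORA17A and SNORA17B, was at 17.1 and 16.7 FPKM in shControl and at 14.0 and 12.4 FPKM in shFOXM1.
SNHG3, which carries SNORA73A and SNORA73B and shares its start region with RCC1, was at 20.6 and 20.8 FPKM in shControl and at 18.5 and 16.6 FPKM in shFOXM1. In SNHG17, the host of the SNORA71 family, the values were 8.50 and 7.50 FPKM in shControl and 7.28 and 5.21 FPKM in shFOXM1. The groups were apart for both, and for SNHG17 the gap was narrow beside the spread within shFOXM1.

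The other H/ACA hosts overlapped between groups. SNHG8 was at 45.3 and 38.2 FPKM in shControl and at 39.2 and 35.6 FPKM in shFOXM1. SNHG15 was at 25.02 and 23.6 FPKM in shControl and at 26.9 and 19.8 FPKM in shFOXM1, and EPB41L4A-AS1 at 9.21 and 8.53 FPKM against 7.48 and 10.3 FPKM. In SNHG15 shFOXM1 2 was the lowest of the 4 libraries, while in EPB41L4A-AS1 it was the highest. SNHG11 stayed between 2.54 and 3.22 FPKM, and SNHG9 rested on 8 to 11 reads per library, with no difference detectable at this depth.

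TAF1D and SNHG12, like SNHG25, hold rows of both snoRNA classes. TAF1D encodes a subunit of the promoter factor of RNA polymerase I and is the protein-coding member that was expressed. It was at 14.0 and 13.0 FPKM in shControl and at 12.2 and 11.5 FPKM in shFOXM1, lower in both shFOXM1 libraries by a log2 value of -0.18 (SE 0.114). SNHG12 was at 9.61 and 10.0 FPKM in shControl and at 9.87 and 5.75 FPKM in shFOXM1, so that shFOXM1 1 lay between the controls and only shFOXM1 2 was low. The hosts of scaRNAs differed among themselves. SNHG10, which carries SCARNA13, was at 2.90 and 2.65 FPKM in shControl and at 2.15 and 2.40 FPKM in shFOXM1. SNHG20, with SCARNA16, was at 2.76 and 2.82 FPKM in shControl and at 3.41 and 3.50 FPKM in shFOXM1, the reverse direction with tight replicates. SNHG21, with SCARNA15, had 11 and 9 reads in shControl and 24 and 23 in shFOXM1, and 72.9% of its exon bases are shared with another row on the same strand.

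The shFOXM1 libraries did not differ from the controls to the same degree. Against the control mean, the median log2 value over the 25 tested hosts was -0.15 for shFOXM1 1 but -0.40 for shFOXM1 2. The difference of shControl 2 from shControl 1 had a median of -0.08. Over all genes tested the same medians were 0.02 and -0.0084. shFOXM1 2 was below shFOXM1 1 for 20 of the 25 hosts, beside 53.3% of all genes. SNHG25 and DANCR had nearly equal values in both shFOXM1 libraries, while SNHG1, SNHG12 and SNHG19 owed most of their difference to shFOXM1 2. FOXM1 was also lower in shFOXM1 2. Single markers of other cell types split the same pair of libraries. The summed level of the fibroblast and endothelium list was 27.0 and 25.4 FPKM in shControl, 48.3 FPKM in shFOXM1 1 and 20.4 FPKM in shFOXM1 2. Most of this sum was COL3A1, at 45.1 FPKM in shFOXM1 1 and 15.9 FPKM in shFOXM1 2. COL1A1 went the other way, with 3.23 FPKM in shFOXM1 1 and 4.48 FPKM in shFOXM1 2. In the same order of libraries, the B cell list summed to 1.92, 1.71, 0.378 and 7.80 FPKM, mostly CD79A. The myeloid list summed to 13.0, 9.15, 13.5 and 8.47 FPKM, nearly all CSF1R, for which the controls also differed (12.8 and 9.04 FPKM). The keratinocyte list summed to 5.71, 4.51, 2.41 and 8.36 FPKM, nearly all CDH1. The T cell list summed to 250, 233, 225 and 260 FPKM. CD3D was at 95.1 FPKM in shFOXM1 1 and 154 FPKM in shFOXM1 2, and CD3G was also higher in shFOXM1 2. CD2, TRAC and PTPRC were lower in shFOXM1 2 than in shFOXM1 1. The part of FOXM1 and of these markers in the difference between the shFOXM1 libraries was not tested.

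**Figure D3:**
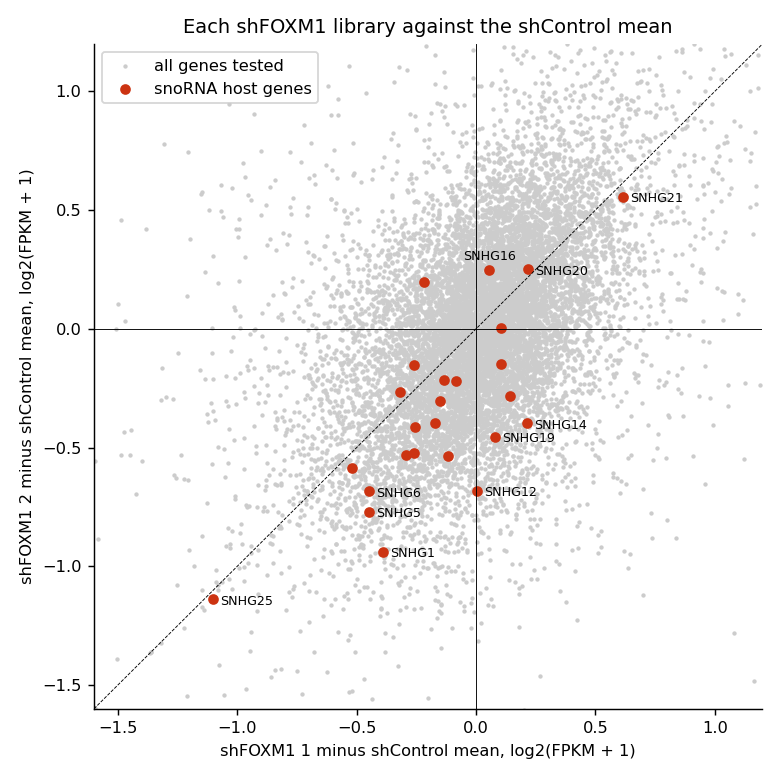
Difference of shFOXM1 1 (horizontal) and shFOXM1 2 (vertical) from the shControl mean on log2(FPKM + 1), for the 25 tested host genes (red) and all genes tested (grey, 179 lie outside the axes); the dashed line marks equal values. Most host genes lie below the dashed line, as 20 of 25 were lower in shFOXM1 2 than in shFOXM1 1, and SNHG25 lies close to it.

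The snoRNAs inside the hosts were mostly not seen in these libraries. The spans of the host genes held 145 snoRNA and scaRNA rows on the same strand, 84 of them in SNHG14, and 115 had 0 reads in all 4 libraries. All 30 rows with reads lay in introns of their host. The 48 rows inside host exons, SNORA50C of SNHG25 among them, and the 3 partly in exons had 0 reads. Over the whole table, 0 of 159 snoRNA or scaRNA rows wholly inside a same-strand exon of another row had a read. Reads were present in 14 of 60 rows partly inside an exon (23.3%) and in 174 of 767 rows that touch no other exon (22.7%). How the counting treated reads in shared exons was not tested, and a 0 there was not read as absence of the snoRNA.

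Among the intronic rows, 10 had at least 20 reads over the 4 libraries. SNORA73B, in SNHG3, had 49, 40, 56 and 44 reads in shControl 1, shControl 2, shFOXM1 1 and shFOXM1 2. SNORA71C, in SNHG17, had 31, 40, 39 and 28 reads, with no order between the groups. SNORA26, in DANCR, had 15 and 19 reads in shControl and 10 and 11 in shFOXM1. It was the only one of the 10 rows with both shFOXM1 libraries below both controls, which was so for 25.9% of all genes tested. DANCR reads numbered 1031, 1075, 741 and 727. SNORD99 took 0.0172 to 0.0190 reads per SNHG12 read in every library. SNORD104 differed in scale, with up to 2.12 reads per host read, where the other 9 rows had at most 0.0865.

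**Figure D4:**
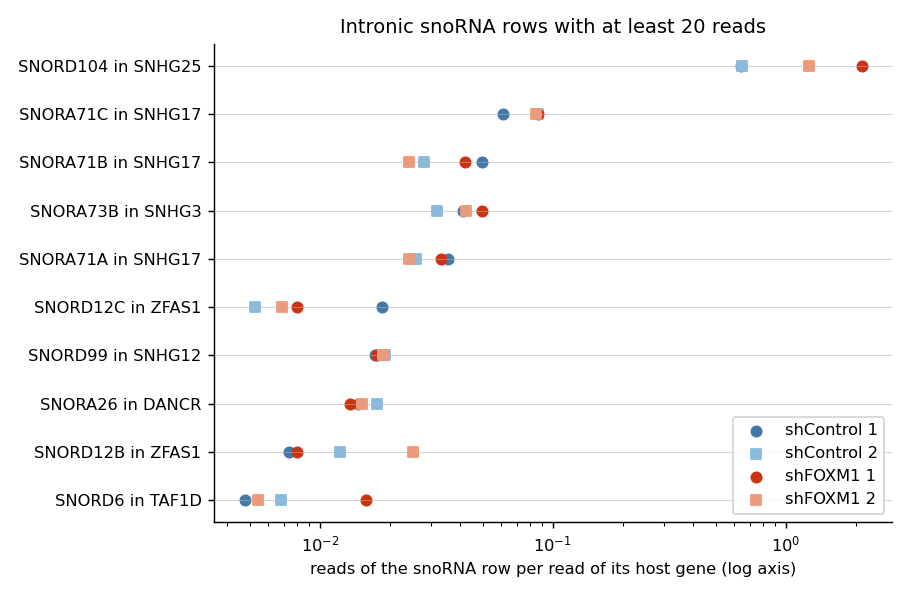
Reads of each intronic snoRNA row with at least 20 reads, divided by the reads of its host gene in the same library (log axis), with 1 point per library. The ratios are not corrected for length, and SNORD104, in the short host SNHG25, stands far to the right. Its points are at 2.12 and 1.26 in shFOXM1 and 0.641 and 0.649 in shControl. Their divisor is the SNHG25 count, for whose low level the group was chosen. SNORA73B in SNHG3 is the only other row with both shFOXM1 points above both shControl points (0.0499 and 0.0426 against 0.0410 and 0.0319). Its own reads overlapped between the groups (49 and 40 in shControl, 56 and 44 in shFOXM1). Its divisor, the SNHG3 count, was lower in both shFOXM1 libraries (1122 and 1034 against 1195 and 1256). By level, 27.3% of all genes tested lay above in both.

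Of the 25 tested hosts, 13 are overlapped by a gene on the opposite strand. The strand setting of the counting is not given in the sources used here, so reads in exon bases that such pairs share cannot be told apart. The shared part of the host exon bases ran from 0.19% in SNHG12 to 49.6% in EPB41L4A-AS1. It was 34.1% in SNHG21, 30.6% in SNHG16, 29.3% in SNHG6 and 26.1% in ZFAS1. ZNFX1, a helicase gene opposite ZFAS1, was at 14.1 and 15.2 FPKM in shControl and at 23.8 and 20.3 FPKM in shFOXM1, the reverse of ZFAS1. FAM69B, opposite SNHG7, was at 4.12 and 4.04 FPKM in shControl and at 2.15 and 2.01 FPKM in shFOXM1, in the direction of SNHG7, and 25.2% of SNHG7 exon bases are shared with exons on the other strand. GLRX5, a gene of iron-sulfur cluster assembly opposite SNHG10, was at 37.7 and 39.7 FPKM in shControl and at 32.1 and 29.2 FPKM in shFOXM1. SEC14L1, which overlaps SNHG20 on the same strand, was at 14.8 and 16.3 FPKM in shControl and at 24.7 and 20.1 FPKM in shFOXM1, in the direction of SNHG20. SNHG25, SNHG5 and SNHG1 have no exon base shared with the other strand. Apart from the neighbours named above and small RNA rows, the tested genes that overlap a host had log2 fold changes from -0.28 (SNRPN) to 0.23 (AC124312.5), both with SNHG14. Genes that start within 1 kb upstream on the other strand were in that range. SLC3A2, an amino acid transporter subunit beside SNHG1, had a log2 fold change of -0.21, TRAF7 beside SNHG19 0.14 and RPS2 beside SNHG9 0.02.

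RefSeq start windows (GRCh38.p14, 250 bases before to 50 after the start) matched 21 of the 25 tested hosts. The 100 bases around the start are shown for the members with a window among those highest in level and for SNHG16, the host above 5 FPKM with the largest positive difference. The start is base 51 of each line, and capitals mark an unbroken pyrimidine run from it.
SNHG5, chr6:85678684-85678783, minus strand: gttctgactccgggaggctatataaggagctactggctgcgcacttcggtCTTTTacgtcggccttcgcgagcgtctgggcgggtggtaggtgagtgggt
SNHG19, chr16:2155309-2155408, minus strand: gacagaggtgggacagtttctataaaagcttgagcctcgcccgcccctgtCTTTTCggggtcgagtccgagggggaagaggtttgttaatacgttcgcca
GAS5, chr1:173868996-173869095, minus strand: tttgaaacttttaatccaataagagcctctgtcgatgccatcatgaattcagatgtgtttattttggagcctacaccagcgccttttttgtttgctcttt
SNHG16, chr17:76557714-76557813, plus strand: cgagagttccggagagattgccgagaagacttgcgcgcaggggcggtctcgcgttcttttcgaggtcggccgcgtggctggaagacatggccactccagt
SNHG5 and SNHG19 begin with C and at least 4 more pyrimidines, GAS5 and SNHG16 at the RefSeq start do not. The RefSeq start of GAS5 lies 163 bases from the GENCODE 29 gene start. That distance is 464 bases for ZFAS1, 1259 for SNHG12, 1927 for SNHG20, 42896 for TAF1D and 154975 for SNHG14. These windows thus lie away from the start of the counted gene. A start of C and at least 4 more pyrimidines was found in 6 of the 21 windows (28.6%), SNHG12, TAF1D and ZFAS1 among them. It was found in 4.07% of all 35116 RefSeq windows and in 17 of 31 windows of ribosomal protein and translation genes that host snoRNAs. Counting any GENCODE 29 transcript, 14 of 25 tested hosts had one (56.0%), SNHG25 with its CTTTC among them. The share was 15.7% of the tested genes with transcript sequences. A gene counted if any of its transcripts began so. These shares were not adjusted for the number of transcripts, which reached 29 in GAS5.

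Motif letters were searched on both strands of the same windows. The cell cycle homology letters TTTGAA were present in 2 of 21 windows (GAS5 and SNHG16), beside 15.2% of all windows, and the variant TTCGAA in 2 (EPB41L4A-AS1 and SNHG17), beside 1.45%. The forkhead core TAAACA was in 2 (GAS5 and SNHG14), beside 12.3%, though the SNHG14 window lies 154975 bases from the start of the counted gene. The MYC site CACGTG was in 1 (SNHG7), beside 7.26%, and the TATA letters TATAAA in 4, beside 11.5%. TTTGAA of GAS5 is visible at the left end of its line and TATAAA of SNHG19 upstream of its start. None of the 21 windows is that of SNHG25, SNHG6, SNHG9 or SNHG15.

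The partner genes of the snoRNA pathway were followed in 6 lists, none of which had a gene called by limma. Protein-coding hosts among ribosomal protein and translation genes numbered 32. Both shFOXM1 libraries were lower for 15 of them and higher for 3, where 25.9% of all genes were lower and 27.3% higher, and the median log2 fold change was -0.08. At an unadjusted limma p under 0.05, 4 were lower and 0 higher, beside 8.99% and 8.82% of all genes. RPL23, a ribosomal protein that hosts SNORA21, was at 123 and 128 FPKM in shControl and at 103 and 88.7 FPKM in shFOXM1, and RPL21 at 188 and 190 FPKM against 152 and 159 FPKM. Other protein-coding hosts numbered 11, with 5 lower and 2 higher in both shFOXM1 libraries (25.9% and 27.3% of all genes) and a median of -0.14. NCL, the nucleolar protein nucleolin, was at 312 and 318 FPKM in shControl and at 264 and 224 FPKM in shFOXM1.

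Proteins of the snoRNA particles were found in both directions. Of the 8 core proteins of the snoRNA particles, 4 were lower and 2 higher in both shFOXM1 libraries, beside 25.9% and 27.3% of all genes, with a median of -0.19; NOP56, NOP58 and DKC1 of this list are also among the other protein-coding hosts. NOP58, a core protein of box C/D particles, was at 63.4 and 65.3 FPKM in shControl and at 91.7 and 77.6 FPKM in shFOXM1, while its partner NOP56 had a log2 fold change of -0.34. SNU13, the protein that first binds box C/D RNA, was at 57.8 and 60.3 FPKM in shControl and at 49.6 and 45.5 FPKM in shFOXM1. The 10 assembly factors had a median of 0.02, with 2 lower and 2 higher in both libraries, shares near or under the 25.9% and 27.3% of all genes. NAF1, which assembles box H/ACA particles, had a log2 fold change of 0.23 and ZNHIT6, which acts on box C/D particles, 0.29.

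The 15 genes of the RNA polymerase I machinery, to which TAF1D belongs, had a median of -0.11, with 6 lower and 3 higher in both shFOXM1 libraries, beside 25.9% and 27.3% of all genes. RRN3, which recruits the polymerase to ribosomal DNA, was at 21.3 and 22.2 FPKM in shControl and at 32.3 and 29.4 FPKM in shFOXM1. UBTF, which binds ribosomal DNA repeats, was at 60.2 and 67.9 FPKM in shControl and at 51.2 and 49.5 FPKM in shFOXM1, in the direction opposite to RRN3. The 10 nonsense-mediated decay factors had a median of 0.00313, with 1 lower and 2 higher in both libraries, under the 25.9% and 27.3% of all genes. SMG8 was at 8.47 and 9.27 FPKM in shControl and at 10.7 and 13.3 FPKM in shFOXM1, and SMG1, the kinase of the pathway, had a log2 fold change of 0.16 (SE 0.123).

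**Figure D5:**
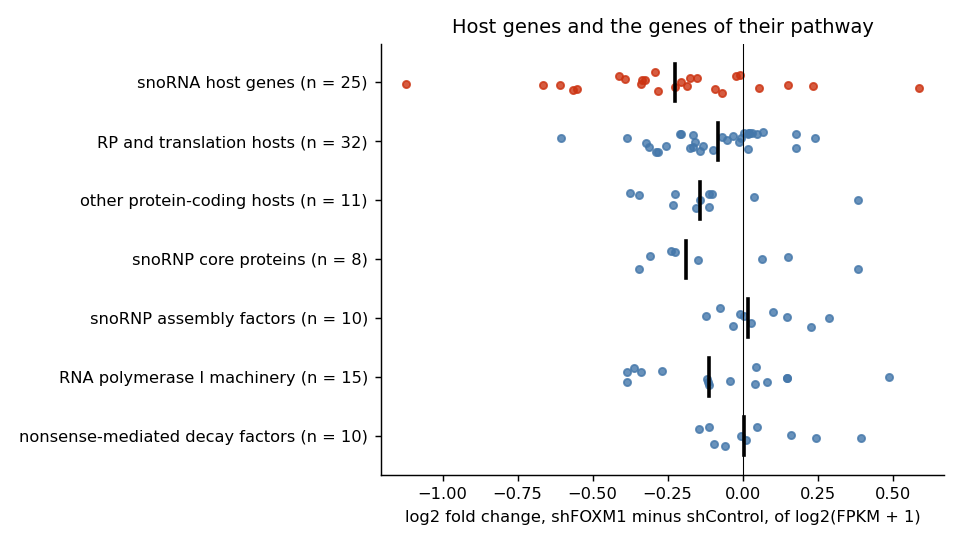
Log2 fold change (shFOXM1 minus shControl) of log2(FPKM + 1) for the 25 tested snoRNA host genes (red) and for the genes of the 6 pathway lists (blue), with 1 point per gene and a bar at each median. The medians are -0.23 for the host genes, -0.08 for ribosomal protein and translation hosts and 0.00313 for nonsense-mediated decay factors.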

How the data were processed

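RNA from 4 Myla cultures was extracted with a column kit and made into libraries with a SMARTER mRNA kit, per the labels' protocols. The authors deposited 1 table of FPKM with the gene lengths they used, per the file headers; 0 columns belonged to other samples. Mouse builds, GRCm38 and mm10, stand in the submitters' processing notes, yet all 58735 rows equal human GENCODE 29 (GRCh38) in identifier and position. Which aligner, counter and strand setting the authors used is not given in the sources used here. Columns named sh0 were taken as shControl and sh1 and sh2 as shFOXM1 1 and 2. Multiplied by length, FPKM came to whole reads in 100% of values (tolerance 0.01 read at low values).

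A gene was tested if 2 or more libraries reached 1 FPKM. Values were log2(FPKM + 1), tested two-sided by limma 3.58.1 (R 4.3.3, moderated variances following a mean trend). P-values were adjusted over the 12033 genes by Benjamini-Hochberg and called under 0.05. With 2 libraries a group the precision is low, and fold changes of low genes are understated by the pseudocount. Voom used reads recovered from FPKM with TMM factors. The fit was tested on simulated data. Genes were named by rule: all host genes that passed the filter, the 2 listed genes per pathway list with the smallest unadjusted p, and neighbours by position. NOP56, SEC14L1 and the choice among overlapping neighbours came after their values were seen. The host genes and lists were chosen with earlier results of these data known.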

Additional observations from a re-analysis of the deposited data

How the results depend on the processing

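The fit was repeated under 15 alternatives, and counting only hosts with no gene on the other strand, or only hosts with at least 50 reads in every library, was added after seeing the data. Limma or voom called 0 genes in all of them but those without 1 shFOXM1 library, a fit that takes its spread from the controls and assumes that the lone library varies like them. Leaving out single libraries gave 0 to 3104 genes called, 0 to 27 listed pathway genes called, 15 to 20 hosts lower in all shFOXM1 libraries kept, 3 to 6 higher (with 33.1 to 44.8% of all genes lower and 34.2 to 44.3% higher in the same fits), and a median log2 fold change of the hosts from -0.40 to -0.15. That median was -0.40 without shFOXM1 1 and -0.15 without shFOXM1 2, beside -0.0084 and 0.02 over all genes tested. With a mean of at least 5 FPKM, 18 hosts were tested, with 12 lower and 1 higher in both shFOXM1 libraries. In that fit 26.5% of all genes were lower and 29.4% higher. Among hosts with no gene on the other strand, 6 of 12 were lower and 1 higher, beside 25.9% and 27.3% of all genes tested. Over hosts and alternatives 358 of 368 fold changes kept their sign, but many of these values could not change. Other filters, no trend, robust variances and the replicate block leave a fold change as it was. Median-of-ratios scaling divided every library by nearly the same factor (1.006). The 10 changes of sign belonged to 7 hosts, SNHG12 among them (-0.68 to 0.0055), and the cause was not tested. The log2 fold change of SNHG25 ran from -1.21 to -1.06, and that of FOXM1 from -2.09 to -1.45 with adjusted p from 0.0122 to 0.753. Over genes, the deviations of shControl 1 and shFOXM1 1 from their group means had a correlation of 0.0421. With 2 libraries a group the second pair mirrors the first. Whether same-numbered libraries were paired is not stated by the labels. The fit with the replicate block called 0 genes and gave 14 hosts lower, 3 higher (25.9% and 27.3% of all genes) and a median of -0.23. Depth limits SNHG9, SNHG21 and SNHG25, which had under 50 reads in a library. The 22 hosts above that had 13 lower, 2 higher and a median of -0.26, where 25.9% of all genes tested were lower and 27.3% higher. Planned tests with edgeR and DESeq2 were tied to a table of counts and were not run, whereas voom on recovered reads was.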
